A study of Mus musculus with 12 samples.

Results

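The genes described here are 45 genes of the cell division machinery, listed by name because their products copy DNA or carry out mitosis, and followed in sorted mouse T cells. All 45 were found among the 52459 genes of the count table, and all 45 were among the 16218 genes kept for testing. The rule is a list of names and uses no threshold on a measured value, but the list was chosen with earlier results of these data known.

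A cell that divides first makes deoxynucleotides and loads the MCM helicase onto replication origins, then copies its DNA, and then builds a spindle that attaches to the centromeres and pulls the chromosomes apart. Most of these genes are transcribed in waves, the replication genes around the entry into S phase and the mitosis genes in G2 and M, and they are low in resting cells. In T cells they mark clonal expansion after antigen or cytokine stimulation, and resting T cells of healthy tissue hold few dividing cells.

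The study asked how γδ T cells and CD4+ T cells differ between mice fed a control diet and mice fed the MCD diet, which causes steatohepatitis, a fatty and inflamed liver. MCD is the usual abbreviation of a diet deficient in methionine and choline; the labels do not spell it out. Feeding began at 7 weeks of age and lasted 6 weeks. There were 6 groups of 2 libraries: γδ T cells of wild-type (WT) mice on the control or the MCD diet, CD4+ T cells of WT (C57BL/6) mice on each of these diets, and CD4+ T cells of γδTCR-/- mice, which lack the γδ T cell receptor, again on each diet. The deleted gene is not given, and CD4+ cells cannot check it: Trdc, the constant region of the δ chain, was at 0.231 to 7.93 CPM in the 8 CD4+ libraries of both genotypes. Cells were sorted by flow cytometry straight into lysis buffer, and the labels name neither the tissue nor the number of mice behind a library. Since no label says that the 2 replicates of a group came from separate mice, the p-values measure only the spread between these samples. The library called γδ MCD replicate 2 carries the label D2-D1_GDT; the end of that name is not explained, D1 is also the label of WT CD4+ MCD replicate 1, and whether both came from the same mice is not known.

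Levels are CPM, counts scaled to a common library size, after TMM scaling, which divides by a library total adjusted so that most genes do not move. Total counts per library were 17035638 to 23203603, of which 40.8% to 56.8% were mitochondrial. The mitochondrial share was 53.8% to 56.8% in γδ libraries and 40.8% to 43.9% in WT CD4+ libraries of both diets. It was 52.7% and 51.1% in γδTCR-/- control and 43.9% and 41.1% in γδTCR-/- MCD libraries. The share thus differed between groups compared below, and beyond a scaling without mitochondrial genes its part in the results was not tested. The γδ libraries of the MCD diet were the poorest in genes: 8989 and 10125 genes had at least 10 counts there, against 11903 to 13402 in the other libraries. A count of 3, taken as the detection floor, was worth 0.13 to 0.162 CPM in 10 libraries and 0.247 and 0.201 CPM in γδ MCD replicates 2 and 4, so lower levels could not be told from 0. Floors and intervals cover counting error only. Trdc was at 537 to 732 CPM in the γδ libraries, and Cd4 was at 631 to 1446 CPM in CD4+ libraries and at 0.974 to 4.29 CPM in γδ libraries.

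The most abundant member by counts was Mki67, which encodes the Ki-67 protein of the chromosome surface and is the usual marker of cycling cells. Its level was 152 and 208 CPM in WT CD4+ T cells on the control diet, 105 and 136 CPM in WT CD4+ T cells on the MCD diet, 116 and 199 CPM in γδTCR-/- CD4+ T cells on the control diet and 198 and 198 CPM in γδTCR-/- CD4+ T cells on the MCD diet. The γδ T cells had 141 and 157 CPM on the control diet and 60.5 and 130 CPM on the MCD diet. Mki67 was thus well above the floor in every library, and γδ MCD replicate 2 was the lowest of the 12. It was the top member in 11 libraries; in γδ MCD replicate 2 that place was held by Mcm4, a subunit of the replicative helicase.

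The deposited FPKM are fragments scaled to gene length and by a factor per library whose origin is not stated. Per length, as mean FPKM over the 12 libraries, the order was led by Mcm4 at 14.9, Pcna at 14.2 and Mki67 at 14.2. They were followed by Mcm6 at 8.73, Top2a at 6.42, Mcm3 at 6.22, Cenpa at 5.34, Rrm2 at 5.16, Mcm7 at 5.05 and Kif11 at 3.58. The first 3 do not differ beyond their spread, since Pcna alone ranged from 2.89 to 24.5 FPKM between libraries and Mcm4 from 6.62 to 26.6. The lowest was Cdk1, the kinase that drives entry into mitosis, at 0.152 FPKM and with 0 counts in 5 of 12 libraries. Levels of the mitotic kinases Plk1, Aurka and Aurkb and of the passenger complex subunits Birc5 and Cdca8 were likewise near the floor in several libraries.

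**Figure D1:**
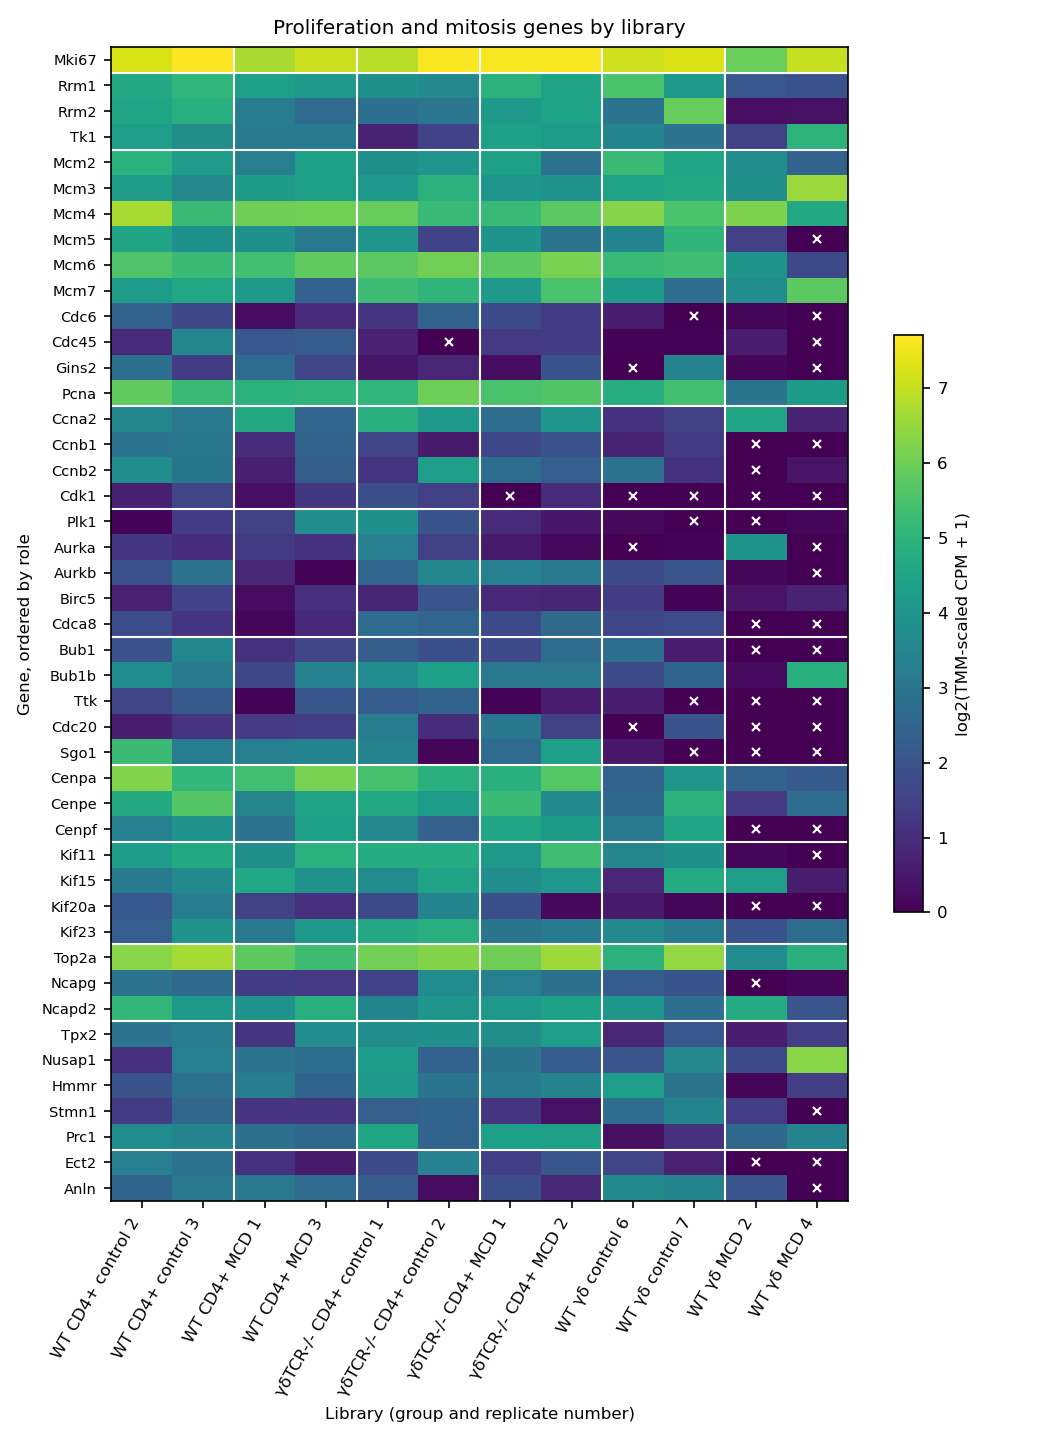
Level of each of the 45 genes in each of the 12 libraries as log2(TMM-scaled CPM + 1), genes ordered by role and libraries by group; white crosses mark 0 counts. Crosses are most frequent in the 2 γδ MCD libraries, which had 13 and 19 members at 0, against 4 and 5 in γδ control libraries and 0 or 1 in CD4+ libraries.

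Promoters of the members carry known cell cycle elements, and 6 of them are shown. They belong to the 3 replication and 3 mitosis members with the highest mean FPKM among those with a RefSeq promoter entry. The CHR element (TTTGAA or TTCGAA) and the CCAAT box are typical of G2 and M genes, and E2F sites (searched as TTTCCCGC, TTTGGCGC, TTTCGCGC and TTTGCCGC) are typical of S phase genes. Each RefSeq window (build GRCm38.p6) runs from 250 bases before the transcription start to 50 after it, 5′ to 3′ on the gene's strand, with matches to the 3 motifs on either strand in capitals. Overlapping E2F matches occur in Mcm6, where TTTGGCGC at 110 bases before the start shares bases with a TTTCGCGC match on the opposite strand at 106 bases before it. The replication genes are Pcna, the sliding clamp of DNA polymerase (chr2:132253131-132253430, minus strand), Mcm6 (chr1:128359656-128359955, minus strand) and Mcm3 (chr1:20820263-20820562, minus strand), both subunits of the MCM helicase.
Pcna: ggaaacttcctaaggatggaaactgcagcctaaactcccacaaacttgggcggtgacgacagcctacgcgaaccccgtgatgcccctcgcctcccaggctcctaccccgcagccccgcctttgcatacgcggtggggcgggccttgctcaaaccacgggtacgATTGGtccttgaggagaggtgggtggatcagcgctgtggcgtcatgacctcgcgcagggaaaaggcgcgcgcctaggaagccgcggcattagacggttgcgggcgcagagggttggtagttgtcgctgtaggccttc
Mcm6: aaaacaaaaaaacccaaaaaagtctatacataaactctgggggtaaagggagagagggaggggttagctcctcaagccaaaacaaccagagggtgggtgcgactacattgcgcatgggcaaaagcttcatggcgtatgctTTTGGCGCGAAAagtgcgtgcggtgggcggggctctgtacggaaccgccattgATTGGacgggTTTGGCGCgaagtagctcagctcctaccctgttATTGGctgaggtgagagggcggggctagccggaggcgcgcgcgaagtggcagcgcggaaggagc
Mcm3: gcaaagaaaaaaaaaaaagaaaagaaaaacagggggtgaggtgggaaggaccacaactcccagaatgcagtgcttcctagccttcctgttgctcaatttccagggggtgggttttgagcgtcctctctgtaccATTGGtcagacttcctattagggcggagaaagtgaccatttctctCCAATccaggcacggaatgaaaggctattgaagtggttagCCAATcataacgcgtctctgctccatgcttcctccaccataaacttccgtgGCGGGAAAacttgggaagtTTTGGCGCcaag
The mitosis genes are Top2a, the topoisomerase that untangles sister DNA (chr11:99024140-99024439, minus strand), Cenpa, the centromeric histone H3 variant (chr5:30666636-30666935, plus strand), and Kif11, the kinesin that pushes the spindle poles apart (chr19:37376132-37376431, plus strand).
Top2a: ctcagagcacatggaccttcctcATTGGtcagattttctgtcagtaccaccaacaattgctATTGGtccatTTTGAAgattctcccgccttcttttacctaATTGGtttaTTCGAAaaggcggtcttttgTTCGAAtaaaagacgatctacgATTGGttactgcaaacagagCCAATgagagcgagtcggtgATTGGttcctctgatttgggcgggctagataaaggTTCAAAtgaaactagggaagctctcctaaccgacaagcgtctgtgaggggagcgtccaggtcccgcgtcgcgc
Cenpa: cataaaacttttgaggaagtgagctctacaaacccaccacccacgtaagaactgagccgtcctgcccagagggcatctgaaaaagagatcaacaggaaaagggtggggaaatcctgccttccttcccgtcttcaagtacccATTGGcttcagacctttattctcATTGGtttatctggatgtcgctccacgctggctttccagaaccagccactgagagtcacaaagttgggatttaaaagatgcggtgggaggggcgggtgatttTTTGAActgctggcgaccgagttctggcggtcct
Kif11: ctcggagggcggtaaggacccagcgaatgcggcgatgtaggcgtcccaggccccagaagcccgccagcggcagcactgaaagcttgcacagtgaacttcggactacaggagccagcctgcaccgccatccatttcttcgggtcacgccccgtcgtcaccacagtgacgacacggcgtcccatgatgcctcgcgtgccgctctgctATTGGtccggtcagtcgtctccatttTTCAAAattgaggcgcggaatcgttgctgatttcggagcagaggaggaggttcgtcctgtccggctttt
In these windows the Kif11 CHR match starts 19 bases before the transcription start and its CCAAT match 45 bases before it. Top2a has 4 CHR and 6 CCAAT matches, Cenpa has 1 CHR match, which lies after the start, and Pcna has a CCAAT match alone.

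RefSeq promoters were matched for 38 of the 45 members, in 41 windows, and Tpx2, Ccna2, Kif20a, Gins2, Mcm4, Aurkb and Stmn1 had no entry. A CHR match was in 28 windows (68.3%, against 19.2% of all 32851 promoters), a CCAAT match in 35 (85.4%, against 37.4%) and an E2F match in 9 (22%, against 2.26%). By class, of 28 windows of mitosis genes 85.7% held a CHR match, 85.7% a CCAAT match and 14.3% an E2F match, while of 12 windows of replication genes 25% held a CHR match, 83.3% a CCAAT match and 41.7% an E2F match. These matches describe the sequence only.

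By role, the 2 members highest per length show how the list varied over the libraries. Mcm4 was at 102 and 36.9 CPM in WT CD4+ control, 65.1 and 65.5 in WT CD4+ MCD, 58.8 and 36.1 in γδTCR-/- control and 36.5 and 53.4 in γδTCR-/- MCD libraries. The Mcm4 level was 77.5 and 45.3 CPM in γδ control and 73.7 and 24.1 CPM in γδ MCD libraries. Pcna was at 56.04 and 36.00 CPM in WT control, 29.6 and 31.3 in WT MCD, 32.7 and 62.8 in γδTCR-/- control and 43.9 and 48.03 in γδTCR-/- MCD CD4+ libraries. Tk1, thymidine kinase, was at 18.4 and 12.9 CPM in WT control and 8.2 and 7.89 CPM in WT MCD CD4+ libraries. Mcm4 thus overlapped between the diets in γδ T cells and in CD4+ T cells of both genotypes, while Pcna and Tk1 were lower without overlap on the MCD diet in WT CD4+ T cells.

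Among the regulators of mitosis, Ccna2, cyclin A2, was at 10.6 and 7.28 CPM in WT control, 24.5 and 4.66 in WT MCD, 27.3 and 16.6 in γδTCR-/- control and 5.75 and 15.4 in γδTCR-/- MCD CD4+ libraries and at 1.17 and 1.73 CPM in γδ control libraries. Ccnb2, cyclin B2, was at 12.7 and 6.93 CPM in WT CD4+ control, 0.589 and 3.78 in WT CD4+ MCD, 1.27 and 18.9 in γδTCR-/- control and 5.62 and 3.95 in γδTCR-/- MCD libraries. The Ccnb2 level was 6.56 and 1.19 CPM in γδ control and 0 and 0.336 CPM in γδ MCD libraries. Ccnb2 was lower without overlap on the MCD diet in WT CD4+ and in γδ T cells, whereas the diets overlapped for Ccna2 in WT CD4+ T cells. Plk1, polo-like kinase, was at 0.046 and 1.56 CPM in WT CD4+ control, 1.82 and 12.6 in WT CD4+ MCD, 13.6 and 2.98 in γδTCR-/- control and 0.875 and 0.368 in γδTCR-/- MCD libraries. The Plk1 level was 0.152 and 0 CPM in γδ control and 0 and 0.0671 CPM in γδ MCD libraries. Aurkb was at 4.68 and 10.7 CPM in γδTCR-/- control and 9.3 and 7.68 CPM in γδTCR-/- MCD CD4+ libraries, and at 2.34 and 3.08 CPM in γδ control and 0.0825 and 0 CPM in γδ MCD libraries. Plk1 stood higher without overlap on the MCD diet in WT CD4+ T cells and lower without overlap in γδTCR-/- CD4+ T cells. Of the checkpoint genes, Sgo1 was at 9.89 and 0.0961 CPM in γδTCR-/- control and 5.43 and 19.5 CPM in γδTCR-/- MCD CD4+ libraries. Bub1b was at 12.3 and 7.75 CPM in WT control, 2.16 and 9.69 in WT MCD, 12.1 and 19.4 in γδTCR-/- control and 7.55 and 7.31 in γδTCR-/- MCD CD4+ libraries and at 2.34 and 4.6 CPM in γδ control libraries. The 2 γδTCR-/- control libraries were far apart for Sgo1.

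At the centromere, Cenpa was at 42.7 and 28.4 CPM in γδTCR-/- control and 27.99 and 49.7 CPM in γδTCR-/- MCD CD4+ libraries. Cenpe, a kinesin of the kinetochore, was at 25.1 and 48.7 CPM in WT CD4+ control, 10.5 and 21.3 in WT CD4+ MCD, 24.7 and 17.7 in γδTCR-/- control and 36.9 and 11.9 in γδTCR-/- MCD libraries. The Cenpe level was 5.03 and 29.7 CPM in γδ control and 1.4 and 5.77 CPM in γδ MCD libraries. Cenpe was lower without overlap on the MCD diet in WT CD4+ T cells alone. Of the spindle motors, Kif11 was at 26.4 and 26.3 CPM in γδTCR-/- control and 16.5 and 39.8 CPM in γδTCR-/- MCD CD4+ libraries. Kif23, a kinesin of the central spindle, was at 3.91 and 14.9 CPM in WT CD4+ control, 7.66 and 16.4 in WT CD4+ MCD, 24.4 and 27.3 in γδTCR-/- control and 6.95 and 7.81 in γδTCR-/- MCD libraries. The Kif23 level was 11.4 and 7.9 CPM in γδ control and 2.8 and 5.64 CPM in γδ MCD libraries. Kif23 was lower without overlap on the MCD diet in γδTCR-/- CD4+ and in γδ T cells. Of the chromosome structure genes, Top2a was at 65.5 and 76.1 CPM in γδTCR-/- control and 65.1 and 95.2 CPM in γδTCR-/- MCD CD4+ libraries. Ncapd2, a condensin subunit, was at 33.5 and 17.2 CPM in WT CD4+ control, 14.6 and 27.5 in WT CD4+ MCD, 10.04 and 15.7 in γδTCR-/- control and 16.2 and 19.9 in γδTCR-/- MCD libraries. The Ncapd2 level was 15.4 and 6.01 CPM in γδ control and 25.6 and 3.09 CPM in γδ MCD libraries. For Ncapd2 the diets overlapped in WT CD4+ and in γδ T cells and the MCD libraries were higher in γδTCR-/- CD4+ T cells, where Top2a overlapped.

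On the spindle microtubules, Nusap1 was at 1.06 and 8.97 CPM in WT control, 6.58 and 5.91 in WT MCD, 17.8 and 4.37 in γδTCR-/- control and 6.86 and 3.77 in γδTCR-/- MCD CD4+ libraries and at 3.1 and 11.4 CPM in γδ control libraries. Tpx2, a spindle assembly factor, was at 6.57 and 8.45 CPM in WT CD4+ control, 1.23 and 12.3 in WT CD4+ MCD, 12.7 and 13.5 in γδTCR-/- control and 13.1 and 19.03 in γδTCR-/- MCD libraries. The Tpx2 level was 0.762 and 3.3 CPM in γδ control and 0.495 and 1.68 CPM in γδ MCD libraries. The diets overlapped for both genes in WT CD4+ T cells. Of the 2 cytokinesis genes, Ect2, which acts in cleavage furrow formation, was at 8.83 and 6.45 CPM in WT CD4+ control, 1.18 and 0.461 in WT CD4+ MCD, 2.29 and 9.61 in γδTCR-/- control and 1.7 and 3.22 in γδTCR-/- MCD libraries. The Ect2 level was 2.08 and 0.649 CPM in γδ control and 0 and 0 CPM in γδ MCD libraries. Anln, the contractile ring scaffold anillin, was at 4.64 and 7.54 CPM in WT CD4+ control, 7.46 and 5.44 in WT CD4+ MCD, 3.75 and 0.192 in γδTCR-/- control and 2.62 and 0.781 in γδTCR-/- MCD libraries. The Anln level was 11.9 and 9.96 CPM in γδ control and 3.05 and 0 CPM in γδ MCD libraries. In γδ T cells both were lower without overlap on the MCD diet, as was Ect2 in WT CD4+ T cells.

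In γδ T cells most members were lower on the MCD diet than on the control diet, but none passed the test after adjustment. Of 45 members, 34 had a log2 fold change below 0 (51.3% of all genes tested) and 10 above 0 (42.5% of all genes), while Cdk1 was at 0 in all 4 libraries. The median member log2 fold change was -1.59, or -1.38 with genes at 0 set to their floor, beside -0.058 over all genes. In 23 members both MCD libraries lay below both control libraries, against 22.1% of all genes, and in 1 member, Prc1, both lay above, against 11.1%. At an unadjusted p under 0.05 there were 18 lower and 2 higher members, against 11.2% and 6.29% of all genes. The lowest adjusted p of a member was 0.0724 (edgeR quasi-likelihood test, Benjamini-Hochberg adjustment over 16218 genes), and the same threshold called 0% of all genes in either direction. Where edgeR called 0 members, DESeq2 called 15 lower and 2 higher among 2105 genes called in all, and limma-voom called 1 lower among 63. Leaving out γδ MCD replicate 2 gave 5 edgeR member calls among 484, and leaving out replicate 4 gave 8 among 1342, with the remaining library assumed to vary like the other groups. Without γδ MCD replicate 2 the count below 0 was 38, and without replicate 4 it was 36; without γδ control replicate 6 it was 28 and without replicate 7 it was 31.

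**Figure D2:**
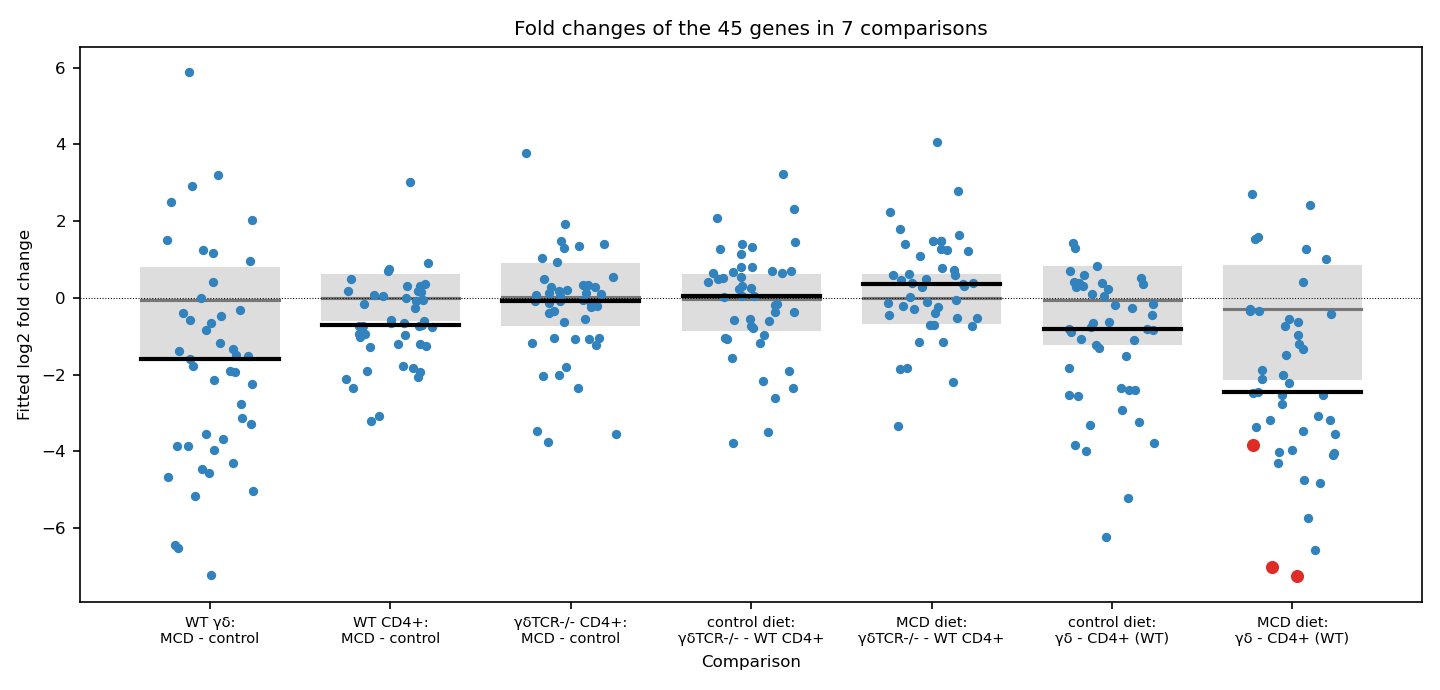
Fitted log2 fold change of each of the 45 genes (points) in 7 comparisons, named on the x axis as first minus second group; red points passed an adjusted p of 0.05, black lines are member medians, and grey boxes and lines are the quartiles and median of all 16218 genes. The member medians are -1.59 for diet in γδ T cells and -2.47 for γδ against CD4+ T cells on the MCD diet, where the only 3 red points lie.

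Nucleotide supply contained some of the widest gaps in γδ T cells. Rrm2, the S phase subunit of ribonucleotide reductase, was at 6.71 and 59.3 CPM on the control diet and at 0.247 and 0.268 CPM on the MCD diet, a 128-fold lower mean (log2 fold change -6.52, SE 1.33, adjusted p = 0.0724 by edgeR). Its control libraries were themselves far apart, and both MCD libraries lay at or just above the floor. Rrm1, the large subunit of the same enzyme, was at 44.2 and 17.2 CPM on the control diet and at 3.3 and 2.82 CPM on the MCD diet, 10.03-fold lower (edgeR adjusted p = 0.114). Tk1, the thymidine kinase of the salvage route, did not follow them: it was at 10.1 and 6.6 CPM on the control diet and at 1.9 and 30.8 CPM on the MCD diet, so that the groups overlapped.

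Among the replication genes, the MCM subunits did not move as one block. Mcm6 was at 36.2 and 39.9 CPM on the control diet and at 14.9 and 2.28 CPM on the MCD diet, and Mcm5 was at 10.2 and 31.8 CPM against 1.73 and 0 CPM. Mcm2 was at 36.6 and 22.6 CPM against 12.8 and 4.5 CPM, which also did not overlap. Mcm3, in contrast, was at 20.8 and 23.9 CPM on the control diet and at 13.4 and 92 CPM on the MCD diet, and Mcm7 at 17.2 and 5.68 CPM against 12.6 and 52.9 CPM. For both genes replicate 4 of the MCD diet was the highest of the 4 libraries, and without it the Mcm3 mean was not above the control mean. Pcna was at 26.7 and 40.8 CPM on the control diet and at 6.85 and 17.3 CPM on the MCD diet, 2.80-fold lower (log2 fold change -1.48, SE 0.65, edgeR adjusted p = 0.263). In all, 6 of the 13 nucleotide supply and replication members were lower without overlap, and none was higher without overlap, against 22.1% and 11.1% of all genes.

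Among the 31 mitosis members, 24 were lower and 6 higher in γδ T cells on the MCD diet, with a median log2 fold change of -1.91. Kif11 was at 10.5 and 13.7 CPM on the control diet and at 0.0825 and 0 CPM on the MCD diet, that is 459 counts against 1 count, a ratio of 325 with an exact 95% counting interval of 58.1 to 12867 (edgeR adjusted p = 0.0724). Cenpf, a large kinetochore protein of G2 and M, was at 8.23 and 21.9 CPM against 0 in both MCD libraries, at least 67.1-fold lower (edgeR adjusted p = 0.0724). Both genes were thus present in each control library and at or below the floor in each MCD library. Bub1, a spindle checkpoint kinase, was at 5.95 and 0.487 CPM against 0 in both, at least 14.3-fold lower (edgeR adjusted p = 0.146). Top2a kept a level well above the floor, at 29.99 and 86.9 CPM against 12.1 and 28.5 CPM, 2.88-fold lower with an edgeR adjusted p of 0.22.

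The γδ MCD libraries also disagreed with each other more than any other pair. Across the 45 members, which are not independent, the 2 libraries correlated with a Pearson's r of 0.603 on log2(CPM + 1), against 0.706 to 0.896 in the other groups; over all genes tested the γδ MCD pair was also the least alike, at 0.754 against 0.855 to 0.916. Of the members, 15 were more than 4-fold apart, against 3 to 12 in the other groups. Nusap1, which bundles spindle microtubules, was at 2.31 and 80.3 CPM, Bub1b, a checkpoint protein, at 0.165 and 28.9 CPM, Aurka, the spindle pole kinase, at 14.9 and 0 CPM, and Ccna2, cyclin A2, at 22.4 and 0.671 CPM. A high value of these 4 genes was therefore a property of a single library in each case. Prc1, which crosslinks the central spindle, was the exception, at 0.254 and 1.19 CPM on the control diet and at 5.03 and 9.8 CPM on the MCD diet (10.3-fold higher, edgeR adjusted p = 0.218).

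Several members share exons with a neighbour on the opposite strand, and whether the counting used strand is not given in the sources used here. In the GENCODE vM21 annotation 11 of the 45 overlap exons of a coding gene on the other strand, among them 6 of the 10 members that were higher and 5 of the 34 that were lower in γδ T cells on the MCD diet. Exosc9, the neighbour of Ccna2 and a subunit of the RNA exosome, was at 17.7 and 0.0671 CPM in the γδ MCD libraries, high and low in the same libraries as Ccna2. Oip5, the neighbour of Nusap1, and Afmid, the neighbour of Tk1, were at 0 in both. Rccd1, the neighbour of Prc1, was at 0.412 and 1.61 CPM there. Of the neighbours of Mcm7, Ap4m1 was at 0 and 14.4 CPM and Cops6 at 10.4 and 4.23 CPM. Whether neighbour reads raised any member was not tested. Reads from the shared exons of such pairs cannot be told apart without strand. Pseudogenes of Ccnb1, Ccnb2 and Pcna are also in the count table, and how reads were divided between them and the genes was not tested.

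The 45 members summed to 584 and 732 CPM in γδ control libraries and to 318 and 528 CPM in γδ MCD libraries. They summed to 914 and 871 CPM in WT CD4+ control libraries, 594 and 709 CPM in WT CD4+ MCD libraries, 772 and 840 CPM in γδTCR-/- CD4+ control libraries and 788 and 902 CPM in γδTCR-/- CD4+ MCD libraries. Both MCD groups of WT mice lay below their control groups without overlap, also when scaled by library totals or by totals without mitochondrial genes. The γδTCR-/- groups overlapped with TMM scaling, but their MCD libraries were higher without overlap by library totals (736 and 804 against 923 and 1071 CPM) and by totals without mitochondrial genes (1555 and 1644 against 1647 and 1818 CPM). By class, the 13 nucleotide supply and replication members summed to 287 and 303 CPM in γδ control and 142 and 227 CPM in γδ MCD libraries, without overlap. The 31 mitosis members summed to 156 and 273 CPM against 115 and 171 CPM, which overlapped, although 24 of the 31 had a log2 fold change below 0. Of the 171 CPM in γδ MCD replicate 4, Nusap1 held 80.3 and Bub1b 28.9 CPM, so that sum rests largely on these genes. In bulk RNA, fewer dividing cells and less of these RNAs per cell cannot be told apart. Members at 0 were 28.9% and 42.2% of the list in the γδ MCD libraries, where 32.0% and 27.1% of all genes tested were at 0 too. In both γδ MCD libraries together, 10 members (22.2%) were at 0, against 19.3% of all genes tested.

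**Figure D3:**
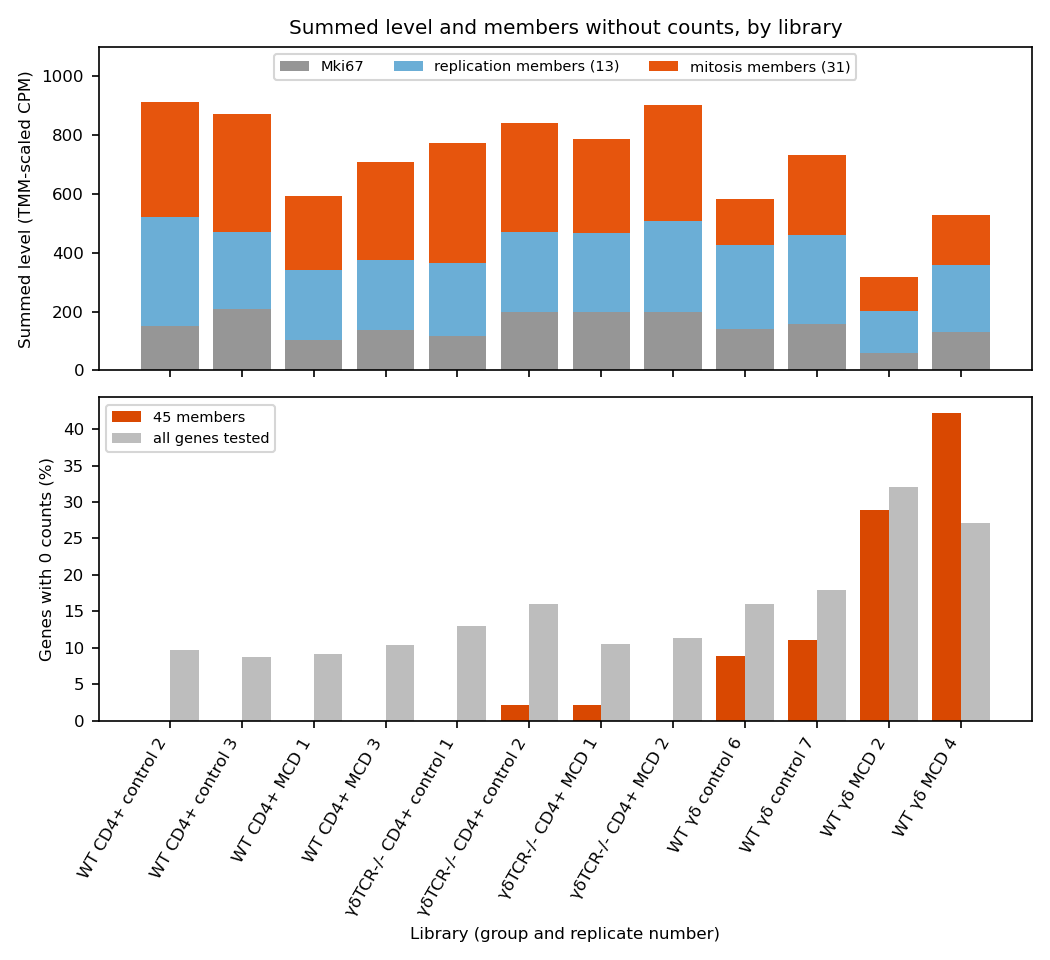
Upper bars: summed TMM-scaled CPM of Mki67, the 13 nucleotide supply and replication members and the 31 mitosis members in each library; lower bars: percentage of the 45 members and of all 16218 genes with 0 counts. The sum is lowest in γδ MCD replicate 2 (318 CPM), and the share of genes at 0 in the γδ MCD libraries is high among all genes as well as among members.

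Between γδ T cells and CD4+ T cells of WT mice on the MCD diet, 3 members passed the test, all lower in γδ T cells: Kif11, Cenpf and Cenpa. That is 3 of 45 members, against 1.18% of all genes called lower and 1.47% called higher. Of the 45 members, 38 were below 0 and 7 above 0, where 55.7% and 41.8% of all genes were, and the median was -2.47, or -2.02 at the floor, beside -0.30 over all genes. In 28 members both γδ libraries lay below both CD4+ libraries (32% of all genes), and in none both lay above (14.5% of all genes). At an unadjusted p under 0.05 there were 18 lower members and no higher one, against 13.4% and 8.52% of all genes. DESeq2 called 16 members here among 2887 genes and limma-voom 2 among 787, all lower. Without γδ MCD replicate 2 edgeR called 5 members (886 genes in all), without replicate 4 it called 6 (2095 genes), and without WT CD4+ MCD replicate 3 it called 1 (47 genes).

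Kif11 (chr19:37376403-37421859, plus strand, GRCm38) was at 0.0825 and 0 CPM in γδ T cells and at 13.4 and 29.6 CPM in CD4+ T cells on the MCD diet. The CD4+ mean was 21.5 ± 11.5 CPM (SD, n = 2), the counts were 1 against 913, and the ratio was 587 with an exact counting interval of 105 to 23207 (edgeR adjusted p = 0.00598). Cenpf (chr1:189640606-189688086, minus strand) was at 0 in both γδ libraries and at 6.63 and 19.6 CPM in CD4+ T cells, at least 58.4-fold lower (edgeR adjusted p = 0.0156). Cenpa (chr5:30666777-30674830, plus strand) was at 4.21 and 3.49 CPM in γδ T cells and at 40.8 and 70.7 CPM in CD4+ T cells, 14.5-fold lower (log2 fold change -3.82, SE 0.83, edgeR adjusted p = 0.0305). The groups did not overlap for any of the 3 genes. With a fit to the 4 libraries compared alone, none of them passed (edgeR adjusted p = 0.251 for Kif11, 0.306 for Cenpf and 0.330 for Cenpa). Without WT CD4+ MCD replicate 3 only Kif11 passed, at an edgeR adjusted p of 0.0433, Cenpf being at 0.1001 and Cenpa at 0.17.

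The members just outside the threshold had the same form. Rrm2 was at 0.247 and 0.268 CPM in γδ T cells and at 8.54 and 5.49 CPM in CD4+ T cells, 27.2-fold lower (edgeR adjusted p = 0.0555). Sgo1, which protects the cohesin of sister centromeres, was at 0 in both γδ libraries and at 8.94 and 10.2 CPM in CD4+ T cells, at least 42.6-fold lower (edgeR adjusted p = 0.0841). By role, all 4 kinesins, all 3 centromere genes, all 3 chromosome structure genes and all 4 cyclin and Cdk1 genes were below 0. The exceptions above 0 were Nusap1, Mcm3, Mcm7, Aurka, Tk1, Bub1b and Prc1, none of which separated the groups. In CD4+ T cells on this diet Mcm3 was at 17.2 and 19.4 CPM, Mcm7 at 17.1 and 4.38 CPM and Aurka at 1.47 and 1.15 CPM. Of these, Nusap1, Mcm3 and Tk1 were below 0 without γδ MCD replicate 4, at -1.42, -0.47 and -2.05.

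On the control diet no member passed the test of the cell types. Of the 45 members, 30 were below 0 and 15 above 0 in γδ T cells (51.8% and 47% of all genes), with a median of -0.80 beside -0.062 over all genes. In 20 both γδ libraries lay below both CD4+ libraries (25.8% of all genes) and in 4 both lay above (20.1%), and 5 members were lower at an unadjusted p under 0.05 (5.51% of all genes) and 0 higher (5.4%). The lowest member adjusted p was 0.262 (edgeR), DESeq2 called 4 members lower among 917 genes and limma-voom 0, while 0.203% of all genes were called lower and 0.45% higher. Scaled by library totals instead of TMM, 40 of 45 were below 0, but that scaling moved the median of all genes to -0.60 as well. The 13 nucleotide supply and replication members stood close to CD4+ T cells, with a median of -0.15, and the 31 mitosis members lower, with a median of -1.09.

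Cenpa carried the lowest p of these, at 4.32 and 16 CPM in γδ T cells and 75 and 33.2 CPM in CD4+ T cells (5.32-fold lower, edgeR adjusted p = 0.262). Sgo1 was at 0.407 and 0 CPM against 37.2 and 8.45 CPM, and Prc1 at 0.254 and 1.19 CPM against 12.4 and 10.2 CPM (edgeR adjusted p = 0.295 and 0.273). Cdc45 was at 0.0508 and 0.0541 CPM against 0.92 and 10.4 CPM, and Cdk1 at 0 in both γδ libraries against 0.598 and 2.08 CPM. The 4 members higher without overlap in γδ T cells were Hmmr at 18.3 and 6.82 against 2.9 and 6.37 CPM, Stmn1 at 5.79 and 10.1 against 1.52 and 4.85 CPM, Mcm3 at 20.8 and 23.9 against 18.02 and 11.4 CPM, and Anln. Kif11 and Cenpf were not among the 5 members of lowest p in either direction on this diet. Kif11 was at 10.5 and 13.7 CPM in γδ T cells and 18.2 and 24.6 CPM in CD4+ T cells, lower without overlap. Cenpf was at 8.23 and 21.9 CPM against 9.1 and 13.9 CPM, which overlapped. Mki67 overlapped between the cell types on both diets.

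**Figure D4:**
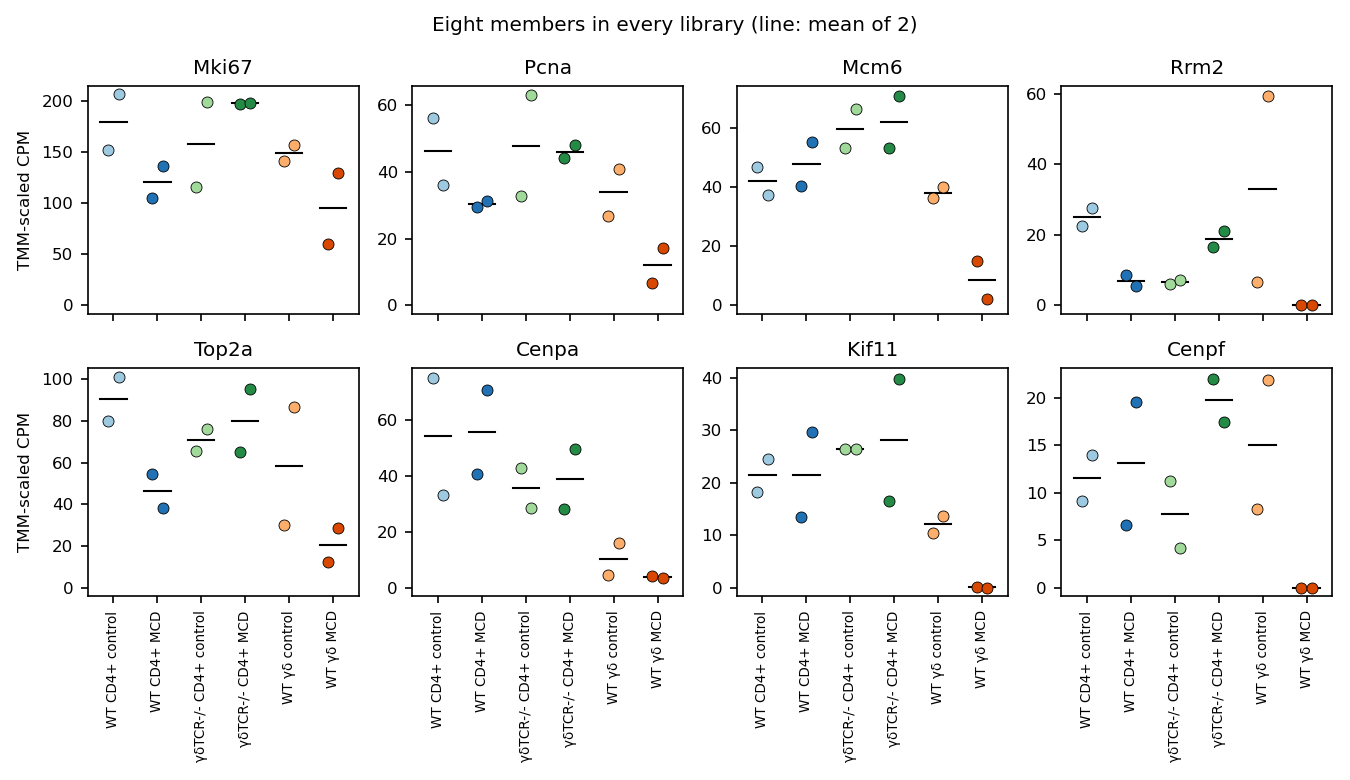
TMM-scaled CPM of 8 members in every library (points, 2 per group) with the group mean (line), each panel with its own y axis from 0. Kif11, Cenpf and Rrm2 lie at or near 0 in both γδ MCD libraries, while Mki67 in γδ MCD replicate 4 (130 CPM) is within the range of the CD4+ libraries.

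In CD4+ T cells of WT mice no member passed the test of the diet. Of the 45 members, 31 were below 0 and 14 above 0 (49% and 49.7% of all genes), with a median of -0.70 beside 0 over all genes. Both MCD libraries lay below both control libraries in 20 members (17.2% of all genes) and above in 3 (16.7%). No member had an unadjusted p under 0.05, where 1.19% of all genes were lower and 0.943% higher, and the lowest adjusted p was 1 (edgeR), with 0% of all genes called; DESeq2 and limma-voom called 0 members too. Top2a was at 80.2 and 101 CPM on the control diet and at 54.8 and 38.3 CPM on the MCD diet, 1.95-fold lower (unadjusted p = 0.121 by edgeR, adjusted p = 1). Aurkb, the kinase of the passenger complex, was at 2.85 and 6.54 CPM against 0.786 and 0.0461 CPM, the lowest unadjusted p of these members at 0.0645 (edgeR adjusted p = 1). Ect2 and Rrm2 were the next lowest by p, at unadjusted p = 0.0863 and 0.0965 by edgeR. Above 0, the lowest p belonged to Plk1, Kif15, Ccna2, Hmmr and Cdc20. Kif15, a second spindle kinesin, was at 8.09 and 11.8 CPM on the control diet and 23.7 and 14.1 CPM on the MCD diet, Hmmr, a spindle-associated protein, at 2.9 and 6.37 against 8.59 and 4.61 CPM, and Cdc20, an activator of the anaphase promoting complex, at 0.552 and 1.21 against 1.42 and 1.66 CPM. The 3 members higher without overlap were Plk1, Kif15 and Cdc20. Kif11 and Cenpa did not follow: Kif11 was at 18.2 and 24.6 CPM on the control diet and at 13.4 and 29.6 CPM on the MCD diet, and Cenpa at 75 and 33.2 CPM against 40.8 and 70.7 CPM.

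In CD4+ T cells of γδTCR-/- mice the members lay on both sides of 0. Of the 45, 24 were below 0 and 21 above 0 (47.1% and 51% of all genes), with a median of -0.077 beside 0.031 over all genes. Both MCD libraries lay below both control libraries in 9 members (18.1% of all genes) and above in 7 (20.8%). At an unadjusted p under 0.05, 1 member was higher and 0 lower, against 3.82% and 2.24% of all genes, and the adjusted test called 0.0308% of all genes higher and 0.00617% lower, with no member among them (lowest edgeR adjusted p = 0.698). DESeq2 called 1 member higher among 266 genes and limma-voom 0. Scaled by library totals, 17 instead of 24 members were below 0 and the median of all genes moved to 0.32. The member with the low p was Tk1, at 0.682 and 1.92 CPM on the control diet and at 20.3 and 17.6 CPM on the MCD diet, 14.6-fold higher (log2 fold change 3.76, SE 1.33). Next by p above 0 were Rrm2, Rrm1, Cenpf at 11.3 and 4.13 against 22.00 and 17.5 CPM, and Cdc45, a cofactor of the helicase, at 0.633 and 0 against 1.43 and 1.56 CPM. Below 0 they were Plk1, Aurka at 8.82 and 1.78 against 0.46 and 0.138 CPM, Kif23, Ttk, a checkpoint kinase, at 3.7 and 4.52 against 0.046 and 0.506 CPM, and Stmn1, which destabilises microtubules, at 3.99 and 4.56 against 1.24 and 0.276 CPM. These 5 were all lower without overlap, with unadjusted p of 0.107 to 0.215 by edgeR.

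The 3 nucleotide supply genes stood in opposite order by diet in the CD4+ T cells of the 2 genotypes, without any of them passing the test. Summed, they were at 65 and 73.5 CPM in WT cells on the control diet and at 36 and 30.5 CPM on the MCD diet, and in γδTCR-/- cells at 20.4 and 20.4 CPM on the control diet and at 66.6 and 60.4 CPM on the MCD diet. Each of the 3 genes was lower without overlap on the MCD diet in WT cells and higher without overlap in γδTCR-/- cells. Of all genes tested, 17.2% were lower without overlap in WT cells, 20.8% were higher without overlap in γδTCR-/- cells and 3.23% were both; among the 45 members 4 were both, these 3 and Ccnb1, cyclin B1. Rrm2 was at 22.5 and 27.7 CPM against 8.54 and 5.49 CPM in WT cells and at 6.09 and 7.21 CPM against 16.5 and 21.1 CPM in γδTCR-/- cells. The difference of the 2 diet effects was 4.72 (SE 1.77) on the log2 scale for Tk1, 3.31 (SE 1.45) for Rrm2 and 1.69 (SE 1.11) for Rrm1. Unadjusted p-values of that difference by edgeR were 0.0166, 0.0376 and 0.149, and each adjusted p was 1 when rounded to 3 digits. The 2 diet effects rest on 8 libraries, with no library in both genotypes.

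Between genotypes, no member passed on either diet by edgeR, DESeq2 or limma-voom. On the control diet 20 members were below 0 in γδTCR-/- against WT CD4+ T cells and 25 above 0 (51.2% and 46.9% of all genes), and both γδTCR-/- libraries lay below in 11 (20.6% of all genes) and above in 12 (16.7%). There 1 member, Tk1, was lower at an unadjusted p under 0.05 and 0 were higher (2.79% and 1.23% of all genes), and 0.0185% and 0.00617% of all genes were called lower and higher. The lowest p below 0 belonged to Tk1, Rrm2, Cdc45 at 0.633 and 0 against 0.92 and 10.4 CPM, Rrm1 at 13.6 and 11.3 against 24.1 and 32.9 CPM and Ccnb1 at 2.05 and 0.48 against 6.57 and 7.19 CPM, none of which overlapped. Above 0 it belonged to Plk1, Kif23, Cdc20 at 8.53 and 1.01 against 0.552 and 1.21 CPM, Aurka at 8.82 and 1.78 against 1.33 and 0.996 CPM and Hmmr at 16.5 and 6.87 against 2.9 and 6.37 CPM, of which Cdc20 overlapped. All 5 mitotic kinase and passenger complex members were above 0, while 9 of the 13 nucleotide supply and replication members were below 0. Scaled by library totals, 26 instead of 20 members were below 0, and the median of all genes was at -0.38. On the MCD diet 19 were below 0 and 26 above 0 (49.2% and 49.2% of all genes), both γδTCR-/- libraries lay below in 7 (17%) and above in 16 (15.9%), and 0 members were lower and 1 higher at an unadjusted p under 0.05 (0.943% and 1.13% of all genes), with 0% of all genes called. That member was Aurkb, at 9.3 and 7.68 CPM against 0.786 and 0.0461 CPM, 20.4-fold higher (edgeR adjusted p = 1). Next by p above 0 were Mki67, Cdca8, a passenger complex subunit, at 2.3 and 5.33 against 0.0982 and 0.831 CPM, Mcm7 at 16.6 and 43.99 against 17.1 and 4.38 CPM and Prc1 at 19.4 and 19.99 against 6.24 and 4.89 CPM. Below 0 they were Plk1, Ttk at 0.046 and 0.506 against 0.0491 and 3.18 CPM, Anln, Aurka at 0.46 and 0.138 against 1.47 and 1.15 CPM, and Mcm4.

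Whether the diet effect differed between groups was tested as an interaction. For WT γδ against WT CD4+ T cells, 31 members were below 0 and 14 above 0 (53.6% and 46.2% of all genes), and 9 were lower and 2 higher at an unadjusted p under 0.05 (7.1% and 3.47% of all genes). None passed after adjustment, nor did any of all genes (0%): the lowest member adjusted p was 0.292, for Kif11 and Cenpf (edgeR). DESeq2 called 3 members lower and 1 higher among 645 genes called in all, and limma-voom 0. Without γδ MCD replicate 2 edgeR called 2 members among 37 genes, and without replicate 4 it called 2 among 455. The members above 0 with the lowest p were Prc1 at 4.20 on the log2 scale, Aurka at 5.72, Mcm7 at 2.42 and Bub1b at 2.79. Kif20a came next at 0.00996, but it had 0 counts in both γδ MCD libraries, and no direction is read from that value. It was at -2.27 with DESeq2 and -0.88 with limma-voom. Those below 0 with the lowest p were Kif11 at -6.44, Cenpf at -7.41, Rrm2 at -4.70, Rrm1 at -2.64 and Mcm6 at -2.32. The median of -1.04 depended on the scale, being 0.051 as log2(FPKM + 1) and -0.50 as log2(FPKM + 0.1). For γδTCR-/- against WT CD4+ T cells, 17 members were below 0 and 28 above 0 (48.1% and 51.5% of all genes), with a median of 0.60 beside 0.047 over all genes. There 1 was lower and 2 were higher at an unadjusted p under 0.05 (1.48% and 2.85% of all genes), and none passed after adjustment by edgeR, DESeq2 or limma-voom. The member lower at that p was Plk1, at -6.56 (SE 3.02), followed by Kif23 at -2.15, Aurka at -3.91, Ttk at -2.74 and Ccna2 at -1.74. Above 0, Tk1, Rrm2 and Rrm1 were joined by Aurkb at 3.36 and Mki67 at 0.90.

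Other genes of the cell cycle, from lists of known function, were read beside the members. Of 40 other DNA replication genes, 28 were lower and 12 higher in γδ T cells on the MCD diet, against 51.3% and 42.5% of all genes. Of 61 other mitosis genes 32 were lower and 24 higher, and of 17 regulators of G1 and S entry 9 were lower and 7 higher. Of 19 inhibitors and quiescence genes 9 were lower and 10 higher. Other than the replication genes, these lists lay near the shares of all genes. None of the genes passed the test. The lowest p among these belonged to Aspm, a spindle pole protein, at 3.56 and 7.68 CPM on the control diet and at 0.0825 and 0.0671 CPM on the MCD diet (edgeR adjusted p = 0.0762), and to Mad2l1, a checkpoint protein, at 14.2 and 24.5 CPM against 0.495 and 0.94 CPM (edgeR adjusted p = 0.0915). Myc, the growth regulator, was at 65.8 and 68.3 CPM against 212 and 158 CPM (2.76-fold higher, edgeR adjusted p = 0.22). E2f4, an E2F of quiescent cells, was at 16.4 and 19.8 CPM against 59.2 and 75.5 CPM (3.73-fold higher, edgeR adjusted p = 0.159). Tyms, thymidylate synthase, was at 8.08 and 4.82 CPM against 0 and 0.0671 CPM, and Btg2, an antiproliferative factor, at 38.5 and 97.2 CPM against 131 and 217 CPM (edgeR adjusted p = 0.0936 and 0.218). None of these 6 pairs of groups overlapped.

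Between γδ and CD4+ T cells on the MCD diet, 5 of the 137 other genes kept passed the test, all lower in γδ T cells, where 1.18% of all genes were called lower and 1.47% higher. They were 2 of the DNA replication genes, 2 of the mitosis genes and 1 of the inhibitors. Aspm was at 0.0825 and 0.0671 CPM against 10.8 and 10.6 CPM (edgeR adjusted p = 0.0149), and Clspn, an adaptor of the replication checkpoint, was at 0 in both γδ libraries against 7.61 and 5.08 CPM, at least 28.3-fold lower (edgeR adjusted p = 0.0405). Tyms was at 0 and 0.0671 CPM against 9.48 and 4.06 CPM (edgeR adjusted p = 0.0438), and Mad2l1 at 0.495 and 0.94 CPM against 18.3 and 9.55 CPM (edgeR adjusted p = 0.0493). The inhibitor was Cdkn1b, which encodes p27, at 24.1 and 40.4 CPM against 157 and 115 CPM, 4.21-fold lower (edgeR adjusted p = 0.0423). Above 0, the lowest p belonged to Myc at 212 and 158 CPM against 53.5 and 30.6 CPM (edgeR adjusted p = 0.0645). Next came Skp2, whose product marks the p27 protein for degradation, at 56.8 and 76.5 CPM against 8.2 and 10.1 CPM (edgeR adjusted p = 0.176). Bub3, a checkpoint protein, was at 64.7 and 80.01 CPM against 35.7 and 22.3 CPM (edgeR adjusted p = 0.206). In CD4+ T cells no gene of these lists passed on diet; 45 of 61 other mitosis genes were below 0 on the MCD diet in WT cells (49% of all genes) and 33 of 61 in γδTCR-/- cells (47.1%). Cdk6, a cyclin D kinase, was at 103 and 124 CPM against 280.0 and 412 CPM in WT CD4+ T cells (3.05-fold higher, unadjusted p = 0.00026 and adjusted p = 1 by edgeR).

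Markers of other cells differed in level between the groups compared, and their part in the results was not tested. Each sum covers all markers listed, kept for testing or not. The 10 sinusoidal endothelium markers, of which 9 were kept, summed to 664 and 1232 CPM in γδ control libraries. They summed to 89.2 and 108 CPM in γδ MCD libraries and to 77.8 to 159.5 CPM in CD4+ libraries. Kdr, Oit3 and Flt4 were at 0 in both γδ MCD libraries. In γδ cells all 9 kept markers were lower on the MCD diet, 8 of them without overlap. The 8 neutrophil and monocyte markers, of which 7 were kept, summed to 877 and 1680.2 CPM in γδ control and 2398 and 1785 CPM in γδ MCD libraries. In CD4+ libraries they summed to 40.9 to 157 CPM, and Ly6g was at no more than 0.0487 CPM in any of the 12. The 9 macrophage and Kupffer cell markers summed to 288 to 479 CPM in γδ and 8.10 to 39.8 CPM in CD4+ libraries, and Clec4f was at 0 in both γδ MCD libraries. Erythroid markers, of which 3 of 6 were kept, summed to 15.0 and 7.31 CPM in γδ control and to 0.742 and 0 CPM in γδ MCD libraries. Hepatocyte markers, of which 7 of 8 were kept, summed to 1.41 to 64.6 CPM over the γδ libraries, B and plasma cell markers, 7 of 8 kept, to 282 to 636 CPM, and NK cell markers, 3 of 4 kept, to 67.9 to 272 CPM. The 9 T cell markers summed to 3032 and 2681 CPM in γδ control and to 2001 and 2013 CPM in γδ MCD libraries, lower without overlap. In CD4+ libraries they summed to 2257 to 4015 CPM. None of the 9 was at 0 in any library.

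**Figure D5:**
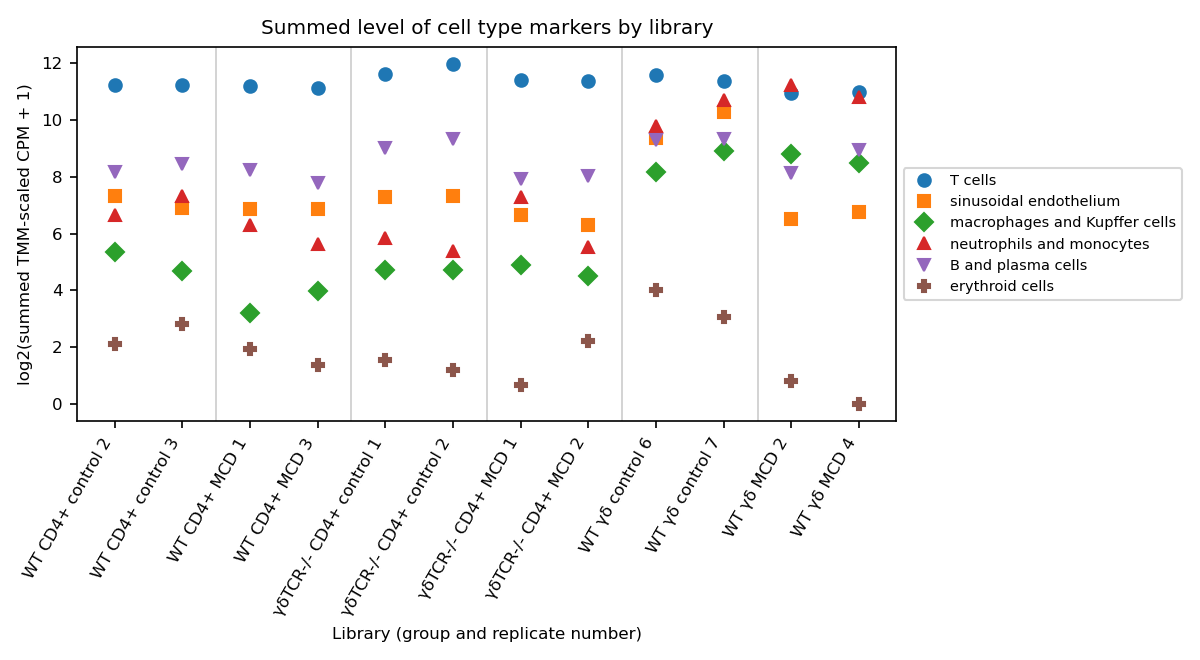
Summed level of 6 lists of cell type markers in each library, as log2(summed TMM-scaled CPM + 1). Neutrophil and monocyte and macrophage markers are higher in the 4 γδ libraries than in all 8 CD4+ libraries, and sinusoidal endothelium markers are higher in the 2 γδ control libraries than in the other 10.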

How the data were processed

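RNA of sorted T cells was sequenced in 12 libraries, 2 in each of 6 groups. The authors deposited raw counts per gene symbol and, per the file headers, the same libraries as FPKM values. The submitters' processing notes name bcl2fastq, STAR, featureCounts, DESeq2 and the mouse build mm10 (GRCm38). The versions, the annotation and the strand setting are not given in the sources used here. The deposited FPKM of a gene were proportional to its raw counts, with a factor per library whose origin is not stated; FPKM served only to order genes by level per length and as an alternative scale. Total counts were 17035638 to 23203603 per library.

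Here, counts were tested with edgeR 4.0.16 (R 4.3.3, limma 3.58.1, DESeq2 1.42.0) by the quasi-likelihood test, 2-sided, with TMM scaling, 1 coefficient per group over all 12 libraries, and Benjamini-Hochberg adjustment over the 16218 of 52459 genes that passed filterByExpr (minimum count 10, minimum total 15). The threshold was an adjusted p of 0.05. The prior count behind log2 fold changes was 2, and folds against a group at 0 used a floor of 3 counts per library. There were 7 comparisons of 2 groups and 2 interactions. The fit was also run on simulated data in which all groups shared a common mean per gene, apart from genes changed on purpose. That setting lacked the low gene numbers of the γδ MCD libraries, and no result here rests on it.

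The 45 members and the lists (11 roles, 4 other cell cycle lists, 8 marker lists) were chosen with earlier results of these data known. Named with their values are the 2 most abundant members of a role, per comparison the 5 members of lowest p in each direction, and, for diet in γδ T cells and cell type on the MCD diet, the 3 other cell cycle genes of lowest p in each direction, taken from those averaging 5 CPM or more where higher. The rule also names such genes in the other comparisons; most of them are left out here as no members. Other named genes illustrate a count or a disagreement between libraries and were chosen after their values were seen. Alternatives covered scaling, tool, unit, low count filter, the libraries in the fit and leaving out each library. Gene positions come from GENCODE vM21 and promoters from RefSeq (GRCm38.p6).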

Additional observations from a re-analysis of the deposited data

How the results depend on the processing

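All γδ MCD results rest on 2 libraries with the highest floors and the fewest genes, and 10 members had 0 counts in both. Leaving out a library leaves 1 in its group, which is then assumed to vary like the other groups. The cause of each change given here was not tested.

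The median member log2 fold change for diet in γδ T cells was -1.59 with edgeR and TMM, -2.04 with DESeq2, -0.49 on log2(FPKM + 1), -1.02 on log2(FPKM + 0.1), and -1.92 to -1.40 leaving out 1 library. For γδ against CD4+ T cells on the MCD diet it was -2.47 with edgeR and TMM, -2.86 with library totals, -2.84 with limma-voom, -2.11 among the 37 members with a mean of at least 50 counts, -0.53 and -1.50 on the 2 FPKM scales, and -3.23 to -1.43 leaving out 1 library. On the control diet it was -0.80, against -1.35 with library totals, -1.16 with limma-voom and -0.39 on log2(FPKM + 1). For diet in WT CD4+ T cells it was -0.70, against -0.29 on log2(FPKM + 1) and -0.79 to -0.52 leaving out 1 library, and in γδTCR-/- CD4+ T cells -0.077, against 0.23 with library totals and -0.34 to 0.054 leaving out 1 library. For genotype it was 0.053, against -0.31 with library totals, -0.17 with limma-voom, -0.16 on log2(FPKM + 0.1) and -0.24 to 0.33 leaving out 1 library on the control diet, and 0.37 on the MCD diet, with 0.19 to 0.64 leaving out 1 library. The interaction of diet and cell type was -1.04, against -1.48 with DESeq2, 0.051 and -0.50 on the 2 FPKM scales and -1.45 to -0.57 leaving out 1 library, and that of diet and genotype 0.60, against 0.88 with library totals and 0.31 to 0.93 leaving out 1 library.

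Counts of members called differed as follows, each with the number of all genes called by the same setting. DESeq2 called 17 (of 2105 genes) for diet in γδ T cells, 16 (of 2887) for cell type on the MCD diet, 4 (of 917) for cell type on the control diet, 4 (of 645) for the interaction with cell type and 1 (of 266) for diet in γδTCR-/- cells. Without the count filter edgeR called 3 (of 555), 6 (of 1071), 1 (of 354) and 2 (of 113) in the first 4 of these. For diet in γδ T cells limma-voom called 1 (of 63), log2(FPKM + 0.1) called 2 (of 210), and leaving out 1 library gave 0 to 8 (8 of 1342 without γδ MCD replicate 4). For cell type on the MCD diet library totals gave 6 (of 748), totals without mitochondrial genes 5 (of 474), a fit to the groups compared 0 (of 62), and leaving out 1 library 1 (of 47, without WT CD4+ MCD replicate 3) to 6 (of 2095, without γδ MCD replicate 4). The interaction with cell type gave 0 to 2 leaving out 1 library (2 of 37 and 2 of 455). Kif11 passed in 21 of 22 alternatives on the MCD diet, Cenpf in 18 and Cenpa in 16.

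Alternatives of single genes were computed for 90 of the 405 pairs of a member and a comparison, those of lowest p. Among these the direction turned in 25 cases. For the interaction with cell type Kif20a was at -2.27 with DESeq2, -0.88 with limma-voom, and -0.79, -0.52, -0.0061 and -0.29 without WT CD4+ control replicate 3, γδ control replicate 7, γδ MCD replicate 2 and WT CD4+ MCD replicate 3 (up to 0.90 without γδ control replicate 6). For cell type on the control diet Rrm2 was at -0.22 with library totals, -0.37 with limma-voom, -0.20 and -0.32 on the FPKM scales and -1.91 to 1.21 leaving out 1 library, the lowest without γδ control replicate 7. Without γδ MCD replicate 2 Aurka was at -0.35 for diet in γδ T cells (up to 6.89 without replicate 4), -3.85 for cell type on the MCD diet (up to 3.39, and -0.97 with limma-voom) and -0.50 for the interaction (up to 6.73), and Ccna2 at -0.99 for diet (up to 3.87). Without γδ MCD replicate 4 Nusap1 was at -1.60 for diet (up to 3.72 without another library) and -1.42 for cell type (up to 3.66), Mcm3 at -0.47 (up to 2.32), Tk1 at -2.05 (up to 1.92) and, for the interaction, Bub1b at -2.999 (up to 4.20). Without WT CD4+ MCD replicate 1 Ccna2 was at -0.93 (up to 1.44) and Hmmr at -0.0057 (up to 1.16) for diet, and without replicate 3 Ttk was at 0.77 for the interaction with genotype (down to -4.09) and 1.32 for genotype on the MCD diet (down to -3.54). Of the other settings of these 90 pairs, 1887 kept direction and side of the threshold, 49 newly passed it and 11 no longer did.

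Replicate numbers 1 and 2 were shared by the γδTCR-/- control and MCD libraries alone. With the replicate block in those libraries the diet median was -0.016 with 0 members called, and the calls over all genes went from 6 to 204. That fit also left out the other groups, so the change does not show the effect of the block alone. Same-numbered libraries did not deviate together (r = -0.000833 across 16218 genes, which are not independent replicates). With 2 libraries per group this cannot exclude pairs. No label says that shared numbers mean pairs, and they were not read as such. No paired analysis was possible in the other comparisons because their groups share fewer than 2 numbers. Whether the library labelled D2-D1_GDT (γδ MCD replicate 2) shares mice with WT CD4+ MCD replicate 1, labelled D1, is not known.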

Other observations

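E2f1, an activating E2F that drives S phase genes, was chosen after its values were seen from the list of G1 and S entry regulators. E2f2 and E2f3 of that list did not follow it, and their diets overlapped in γδ and in WT CD4+ T cells. In raw counts, E2f2 had 339 and 50 in γδ control and 1126 and 22 in γδ MCD libraries. E2f3 had 92 and 27 raw counts in γδ control and 1 and 458 in γδ MCD libraries. The account of E2f1 therefore holds for this gene only. E2f1 was at 8.44 and 9.25 CPM in γδ T cells on the control diet and at 0 in both γδ libraries on the MCD diet, at least 39.4-fold lower (unadjusted p = 0.0028, adjusted p = 0.127 by edgeR). In WT CD4+ T cells it was at 1.66 and 6.32 CPM on the control diet and at 0.0491 and 0 CPM on the MCD diet, that is 182 counts against 1, a ratio of 171 with an exact 95% counting interval of 30.2 to 6777 (unadjusted p = 0.0099, adjusted p = 1 by edgeR). In γδTCR-/- CD4+ T cells it was at 0.0974 and 0.0961 CPM on the control diet and at 0.0921 and 0.23 CPM on the MCD diet. E2f1 was therefore above 1 CPM in the 4 control libraries of WT mice and below 1 CPM in the other 8. In both γδTCR-/- control libraries it had 2 counts, under the floor of 3, and the difference from WT CD4+ T cells on that diet had an unadjusted p of 0.0267 and an adjusted p of 1 by edgeR.

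Rbl2, which encodes the pocket protein p130 of resting cells, had the lowest p among the other cell cycle genes for diet in γδTCR-/- CD4+ T cells (unadjusted p = 0.00191, adjusted p = 0.362 by edgeR). It was at 382 and 351 CPM in γδ T cells on the control diet and at 419 and 386 CPM on the MCD diet. In γδTCR-/- CD4+ T cells it was at 169 and 174 CPM on the control diet and at 337 and 331 CPM on the MCD diet, and in WT CD4+ T cells at 251 and 319 CPM and at 259 and 312 CPM.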
